A study of Mus musculus with 12 samples.

Results

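Collagens are secreted or membrane-anchored proteins whose 3 chains wind into a triple helix, and each chain has its own gene. All genes of the count table whose symbol reads Col, a number, a and a number were taken, which gave 44 collagen genes of 55413 genes in all: 11 of the fibrillar class, 6 of the type IV class that forms the network of basement membranes, and 27 others. The levels of these genes were followed in 12 bulk RNA-seq libraries of sorted mouse Treg cells (regulatory T cells, the Foxp3-dependent CD4 cells that restrain immune responses). The first group was peripherally derived Treg cells sorted from tumors (tumor pTreg, 3 libraries), the second was tTreg cells sorted from tumors (tumor tTreg, Treg cells of thymic origin, 5 libraries), and the third was total Treg cells from lymph nodes of mice without tumors (LN Treg, 4 libraries).

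Both tumor groups came from TCRbd-/- hosts, which lack T cells of their own and keep their other cells. The hosts had received tTreg cells from CD45.1 Foxp3YFP-cre mice together with 2 further populations from CD45.2 Foxp3YFP-cre mice, Foxp3- conventional CD4+ cells at 10 and CD8+ cells at 8 for every 1 tTreg cell. A mouse hepatoma line, Hepa1-6, was inoculated 3 days after the transfer, and tumors were taken on day 18. The LN Treg libraries carry the genotype label Foxp3YFP-cre and TCRbd-/- mice without saying which of these gave the cells. Ages are not given in the labels. Nothing in the labels says that libraries of a group came from separate animals, so the p-values measure the spread between libraries, which may be technical.

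Fibrillar collagens (types I, II, III, V, XI, XXIV and XXVII) assemble into the fibrils of connective tissue, and types I and III are the classical products of fibroblasts. Type IV chains are laid down beneath endothelium and epithelium and around pericytes. The remaining types decorate fibrils (the fibril-associated or FACIT collagens such as types IX and XIV), form beaded filaments (type VI) or short-chain networks (types VIII and X), anchor basement membranes or span the cell membrane. T cells are not regarded as a main source of fibrillar collagen.

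The libraries held transcripts of several cell types besides T cells. Library totals ran from 17964262 to 18180959 counts in tumor pTreg, 18107272 to 18510923 in tumor tTreg and 14573864 to 17323894 in LN Treg. The summed level of 18 pan-T genes averaged 1356 CPM (counts-per-million) in tumor pTreg, 132 CPM in tumor tTreg and 6271 CPM in LN Treg. Foxp3 averaged 20.3, 8.74 and 441 CPM in the same order, so the defining marker of the sorted cells was present in each group. Macrophage markers summed to means of 5939, 6140 and 37.9 CPM, and hepatoma and hepatocyte markers to 5574, 8178 and 8.54 CPM, in tumor pTreg, tumor tTreg and LN Treg. Every level below is a level of the whole library. In bulk libraries fewer cells of a type and less RNA per cell cannot be told apart.

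The sequences around annotated starts of 4 collagen genes with large differences from LN Treg below are shown first. They are RefSeq windows of GRCm38.p6 that reach from 250 bases before to 50 bases after a gene start, all on the plus strand. Capitals mark 3 short motifs searched on both strands: CCAAT, which reads ATTGG when it lies on the other strand, GGGCGG, which then reads CCGCCC, and TATAA, which then reads TTATA. The last motif overlaps its own reverse complement in the windows of Col3a1 and of the upstream Col9a1 start.
Col3a1, chr1:45311288-45311587: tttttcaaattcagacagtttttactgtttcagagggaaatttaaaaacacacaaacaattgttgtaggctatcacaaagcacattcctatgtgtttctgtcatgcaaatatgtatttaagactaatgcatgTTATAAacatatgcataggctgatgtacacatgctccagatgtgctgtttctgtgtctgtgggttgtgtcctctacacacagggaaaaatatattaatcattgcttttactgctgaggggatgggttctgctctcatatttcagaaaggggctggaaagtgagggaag
Col1a2, chr6:4505368-4505667: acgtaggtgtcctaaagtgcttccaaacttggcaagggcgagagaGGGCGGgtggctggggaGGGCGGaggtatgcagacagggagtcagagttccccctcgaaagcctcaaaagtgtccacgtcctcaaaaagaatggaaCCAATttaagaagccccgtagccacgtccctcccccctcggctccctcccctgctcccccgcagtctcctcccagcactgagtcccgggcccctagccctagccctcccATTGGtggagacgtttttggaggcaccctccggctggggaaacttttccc
Col4a2 (with the start of Col4a1), chr8:11312555-11312854: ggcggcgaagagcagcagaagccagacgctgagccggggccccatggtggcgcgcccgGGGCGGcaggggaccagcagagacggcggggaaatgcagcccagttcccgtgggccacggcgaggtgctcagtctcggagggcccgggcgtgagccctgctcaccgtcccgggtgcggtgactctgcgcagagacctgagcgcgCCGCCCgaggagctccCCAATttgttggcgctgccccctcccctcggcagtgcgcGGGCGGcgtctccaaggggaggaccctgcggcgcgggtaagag
Col9a1, upstream start, chr1:24177360-24177659: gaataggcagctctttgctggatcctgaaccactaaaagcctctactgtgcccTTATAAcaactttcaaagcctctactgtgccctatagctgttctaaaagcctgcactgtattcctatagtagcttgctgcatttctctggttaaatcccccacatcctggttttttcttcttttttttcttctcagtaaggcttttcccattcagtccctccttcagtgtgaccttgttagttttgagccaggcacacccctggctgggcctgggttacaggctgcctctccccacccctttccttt
Col9a1, downstream start, chr1:24194953-24195252: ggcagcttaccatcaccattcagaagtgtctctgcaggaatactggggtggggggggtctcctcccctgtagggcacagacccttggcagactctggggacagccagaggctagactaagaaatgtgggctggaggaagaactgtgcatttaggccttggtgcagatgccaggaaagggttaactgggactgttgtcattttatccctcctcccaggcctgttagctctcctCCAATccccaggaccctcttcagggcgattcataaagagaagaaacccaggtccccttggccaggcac
The Col3a1 window held neither CCAAT nor GGGCGG, and its TATAA lay 117 bases before the gene start. The Col1a2 window held 2 matches of CCAAT and 2 of GGGCGG. The Col4a2 window held 3 matches of GGGCGG and 1 of CCAAT, and it covers the place where Col4a1 and Col4a2 start on opposite strands. The 2 starts lie 21 bases apart, and annotated exons of the 2 genes overlap there. The bases shown before the Col4a2 start therefore lie within the Col4a1 gene.

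Of 38 windows of 35 collagen genes, 60.5% held GGGCGG, against 35.7% of all 32851 promoter windows. CCAAT was in 34.2% of the collagen windows and 37.4% of all windows, and TATAA in 18.4% and 24.9%. A match describes letters of the window and is not a binding site. The RefSeq table has no window for Col1a1, Col2a1, Col4a3, Col5a2, Col9a3, Col12a1, Col14a1, Col22a1 and Col26a1.

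The collagen repertoire of the libraries was broad. A mean of at least 1 CPM in any group was reached by 25 of the 44 genes: 8 of 11 fibrillar, 2 of 6 type IV and 15 of 27 others. The count was 24 in tumor pTreg, 23 in tumor tTreg and 10 in LN Treg. At least 10 CPM in any group was reached by 17 genes, 7 of them fibrillar, 2 type IV and 8 others. No count at all was seen for Col11a1 and Col26a1, which at 3 counts over a group allows up to 0.0553 CPM in tumor pTreg, 0.0328 CPM in tumor tTreg and 0.0454 CPM in LN Treg; these floors cover counting error only. Col2a1, the fibrillar collagen of cartilage, stayed at or below 0.174 CPM in every library. A total of 13 genes had no count in the 4 LN Treg libraries, and 11 of these were seen in a tumor library.

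**Figure D1:**
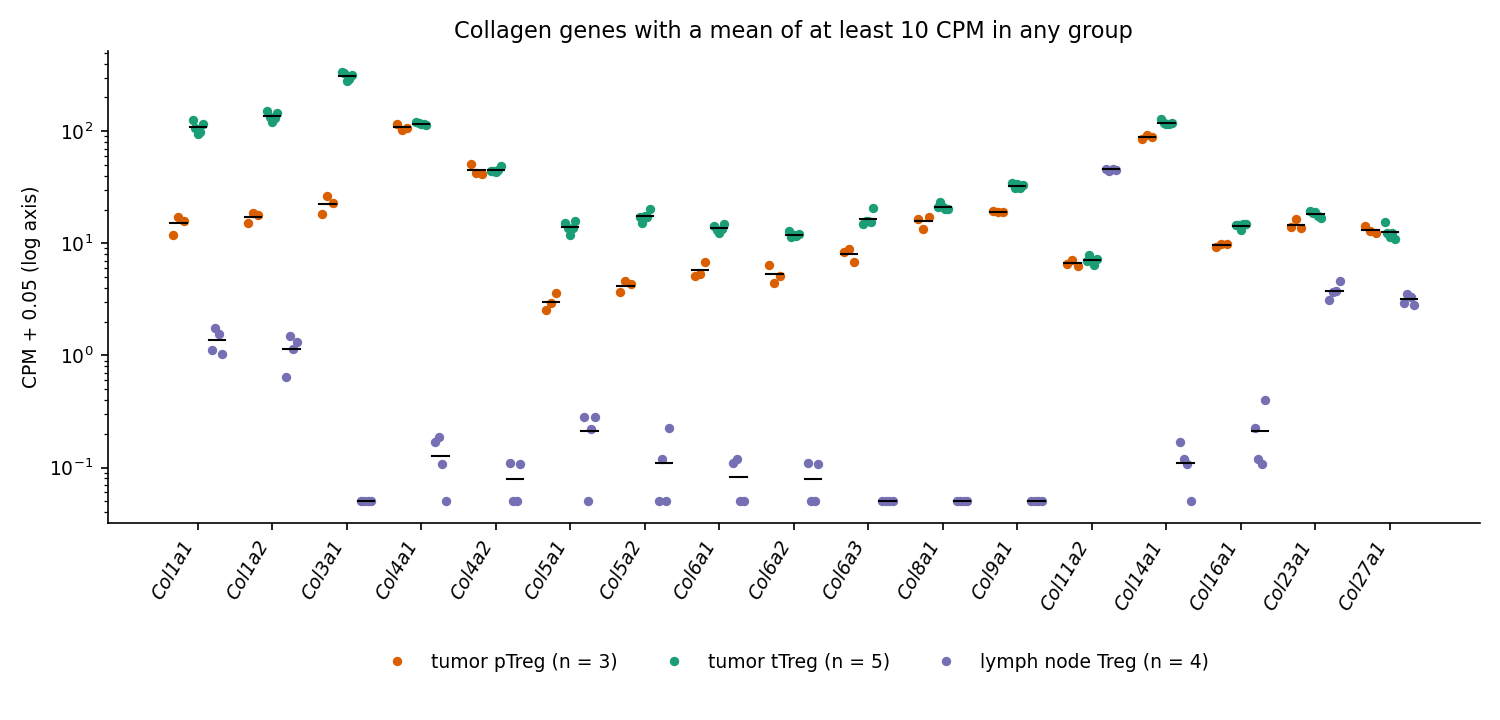
Levels of the 17 collagen genes with a mean of at least 10 CPM in any group. The y axis is CPM + 0.05 on a log scale, each point is a library, and black lines are group means. The 3 tumor pTreg libraries lie below all 5 tumor tTreg libraries for Col3a1, Col1a1 and Col1a2, the 2 tumor groups overlap for Col4a1 and Col4a2, and Col11a2 is highest in LN Treg.

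Of the 3 broad classes the fibrillar chains had the lowest median log2 fold change between the tumor groups (-2.14), with 5 of 8 tested chains lower and 3 not called. Col3a1, the single chain of type III collagen of loose connective tissue, measured 18.0, 26.2 and 22.7 CPM in tumor pTreg, against 336, 327, 281, 295 and 320 CPM in tumor tTreg. No library of the 2 groups came near the other group. The log2 fold change was -3.80 (SE 0.071, adjusted p = 3.80e-24 by the edgeR quasi-likelihood test with Benjamini-Hochberg adjustment over 15705 genes), so that tumor pTreg was 13.9-fold lower. The gene lies at chr1:45311538-45349706 (GRCm38, GENCODE vM21, plus strand), where exons of Gm47302 overlap it on the same strand; Gm47302 had no count in any group. All 4 LN Treg libraries had no Col3a1 count. Against a floor of 3 counts over the LN Treg group, Col3a1 was at least 491-fold higher in tumor pTreg and at least 6872-fold higher in tumor tTreg.

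Both chains of type I collagen, the main fibril protein of skin, tendon and bone, fell in tumor pTreg as well; Col1a1 lies at chr11:94936224-94953042 and Col1a2 at chr6:4504814-4541544, both on the plus strand. Col1a1 measured 11.9, 17.3 and 15.8 CPM in tumor pTreg, against 125, 107, 95.1, 99.3 and 117 CPM in tumor tTreg, and 1.06, 1.72, 1.5 and 0.988 CPM in LN Treg. Its log2 fold change between the tumor groups was -2.85 (SE 0.088, adjusted p = 3.35e-21, edgeR). Col1a2 measured 15.2, 18.5 and 18.0 CPM in tumor pTreg, against 151, 135, 120, 132 and 145 CPM in tumor tTreg, and 0.588, 1.44, 1.1 and 1.28 CPM in LN Treg. The 3 groups did not overlap for either chain, and the Col1a2 log2 fold change between the tumor groups was -2.98 (SE 0.070, adjusted p = 5.00e-24, edgeR).

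Type V collagen, which joins type I in fibrils and sets their width, fell in 2 of its 3 chains. Col5a1 measured 2.48, 2.89 and 3.54 CPM in tumor pTreg, against 15.1, 13.6, 11.8, 13.5 and 15.9 CPM in tumor tTreg (log2 fold change -2.23, edgeR adjusted p = 1.20e-14). Col5a2 measured 3.63, 4.56 and 4.26 CPM in tumor pTreg, against 17.3, 15.2, 17.4, 17.2 and 20.1 CPM in tumor tTreg (log2 fold change -2.06, edgeR adjusted p = 3.03e-15). Neither pair of groups overlapped. The third chain, Col5a3, averaged 2.86 ± 0.80 CPM in tumor pTreg and 3.62 ± 0.64 CPM in tumor tTreg (SD), overlapped between the groups and did not pass the test (log2 fold change -0.33, edgeR adjusted p = 0.117).

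The other 2 fibrillar genes tested, Col11a2 and Col27a1, gave no call between the tumor groups. Col27a1, a fibrillar chain known from cartilage, measured 14.4, 12.9 and 12.4 CPM in tumor pTreg, against 15.5, 12.4, 11.3, 12.3 and 11 CPM in tumor tTreg (log2 fold change 0.09, edgeR adjusted p = 0.411), and 2.88, 3.5, 3.29 and 2.79 CPM in LN Treg. The tumor groups overlapped, and both lay above LN Treg, with log2 fold changes of 2.20 in tumor pTreg and 2.10 in tumor tTreg.

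Col11a2 was the one collagen with more than 10 CPM in LN Treg. This chain of type XI collagen is known from cartilage fibrils and the inner ear. It measured 6.55, 7.07 and 6.25 CPM in tumor pTreg and 6.90, 7.81, 6.86, 6.41 and 7.23 CPM in tumor tTreg, against 46.4, 44.6, 46.4 and 45.1 CPM in LN Treg. The tumor groups overlapped (log2 fold change -0.08, edgeR adjusted p = 0.489), and each lay below every LN Treg library, by log2 fold changes of -2.68 (SE 0.068) and -2.60 (SE 0.056). Its partner in type XI fibrils, Col11a1, had no count in any library. Scaled to the pan-T counts in place of library totals, Col11a2 remained lower in tumor pTreg than in LN Treg. In tumor tTreg it turned to a log2 fold change of 2.87 over LN Treg. That scaling moved the median of all genes over LN Treg to 2.22 in tumor pTreg and 5.57 in tumor tTreg. Col11a2 thus stayed below the median of all genes in both. The effective length behind the LN Treg FPKM of Col11a2 was 3600 ± 327 bases (SD, n = 4). It was 4368 ± 1370 bases in tumor pTreg (n = 3) and 3842 ± 800 bases in tumor tTreg (n = 5). For genes with 1 transcript, effective lengths were 292 to 315 bases below annotated lengths (library medians). All 3 group means lay below the 5073 to 6048 bases of its coding transcripts in GENCODE vM21. The annotation of the quantification is not known here, so this is a comparison of lengths.

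Type IV collagen was near the same level in both tumor groups. Col4a1 measured 116, 102 and 106 CPM in tumor pTreg, against 121, 118, 115, 117 and 114 CPM in tumor tTreg. The groups overlapped through tumor pTreg replicate 1, and the difference was a log2 fold change of -0.11 (SE 0.037, adjusted p = 0.0156, edgeR); without tumor pTreg replicate 2 or 3 the adjusted p was 0.200 or 0.0668. Col4a2, its partner in the common type IV network, measured 51.4, 42.1 and 41.5 CPM in tumor pTreg, against 43.9, 43.9, 43.4, 44.8 and 48.8 CPM in tumor tTreg. The groups overlapped and the gene did not pass the test (log2 fold change 0.0093, SE 0.058, edgeR adjusted p = 0.910).

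Tumor pTreg replicate 1 was the highest tumor library for Col4a2 and the lowest tumor library for Col1a1, Col1a2, Col3a1, Col5a1 and Col5a2. In LN Treg Col4a1 stayed at or below 0.137 CPM and Col4a2 had 2 counts in the whole group. The ratio of counts for Col4a2 was 1488 in tumor pTreg (95% binomial interval 411 to 12294, counting error only) and 1485 in tumor tTreg, each against LN Treg. The 4 minor type IV chains, Col4a3, Col4a4, Col4a5 and Col4a6, which take the place of the common chains in kidney and other specialised membranes, had group means of at most 0.317 CPM and were not tested.

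The promoter windows of Col4a1 and Col4a2 share 78 bases, and only that of Col4a2 is printed above. These windows and the levels of this pair can be set beside the chain ratios. In FPKM, which is scaled to transcript length, the ratio of Col4a1 to Col4a2 was 2.44 in tumor pTreg and 2.77 in tumor tTreg (geometric means; ranges 2.26 to 2.54 and 2.57 to 2.94). The ratio of Col3a1 to Col1a1 was 2.22 in tumor pTreg and 3.76 in tumor tTreg (ranges 1.85 to 2.46 and 3.5 to 4.18). For each of these ratios the groups did not overlap, and the exact two-sided permutation test gave p = 0.0357, which is the smallest value that 3 against 5 libraries allow; adjusted over the 6 ratio tests made, p was 0.107. By counts the Col4a1 to Col4a2 ratios of the groups overlapped, at 2.41 in tumor pTreg and 2.61 in tumor tTreg (exact permutation p = 0.143).

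For the 2 chains of type I collagen and for 2 chains of type VI no ratio test gave p below 0.05 (exact permutation test). With 3 tumor pTreg against 4 LN Treg libraries that test cannot give p below 0.0571. After adjustment none of the 6 ratio tests passed, so these tests do not show that a ratio was unchanged. The FPKM ratio of Col1a1 to Col1a2 was 0.750 in tumor pTreg and 0.710 in tumor tTreg (exact permutation p = 0.179), and 0.817 in LN Treg, where it ranged from 0.581 to 1.23 over the 4 libraries. Col6a1 to Col6a2 gave 1.06 in tumor pTreg and 1.12 in tumor tTreg (exact permutation p = 0.679), with ranges of 0.792 to 1.28 and 1.01 to 1.21.

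Type VI collagen, the beaded filament found around most connective tissue cells, fell in all 4 of the chains tested. Col6a1 measured 5.06, 5.23 and 6.75 CPM in tumor pTreg, against 14.3, 13.2, 12.2, 13.4 and 14.9 CPM in tumor tTreg (log2 fold change -1.25, SE 0.10, edgeR adjusted p = 2.00e-11). Col6a2 measured 6.33, 4.34 and 5.09 CPM in tumor pTreg, against 12.9, 11.4, 11.7, 11.6 and 12 CPM in tumor tTreg (log2 fold change -1.17, edgeR adjusted p = 1.11e-10). Col6a3 measured 8.36, 8.85 and 6.75 CPM in tumor pTreg, against 14.9, 15.8, 15.9, 15.4 and 20.5 CPM in tumor tTreg (log2 fold change -1.04, edgeR adjusted p = 8.20e-09). None of the 3 chains overlapped between the groups.

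Col6a5, an alternative type VI chain of low level, averaged 0.0738 CPM in tumor pTreg and 0.984 CPM in tumor tTreg (log2 fold change -3.61, SE 0.50, edgeR adjusted p = 6.27e-07). The tumor pTreg value rests on 4 counts over the group. Col6a4 and Col6a6 stayed below 1 CPM and were not tested. Against LN Treg, where Col6a3 had no count, Col6a3 was at least 176-fold higher in tumor pTreg and at least 364-fold higher in tumor tTreg.

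Of the fibril-associated collagens, Col14a1 was the most abundant. This chain coats fibrils that contain type I collagen. It measured 84.9, 91.9 and 89.3 CPM in tumor pTreg, against 127, 119, 116, 116 and 118 CPM in tumor tTreg, and at most 0.118 CPM in LN Treg. The tumor groups did not overlap, and the difference, a log2 fold change of -0.42 (SE 0.036, adjusted p = 8.61e-11, edgeR), was smaller than that of any type I, III or VI chain tested. Col16a1 measured 9.19, 9.85 and 9.74 CPM in tumor pTreg, against 14.5, 14.5, 13.0, 14.8 and 15 CPM in tumor tTreg (log2 fold change -0.57, edgeR adjusted p = 1.16e-06). Col22a1, known from muscle-tendon junctions, fell by 0.40 on the log2 scale (adjusted p = 0.0228, edgeR), at 2.86 ± 0.23 CPM in tumor pTreg and 3.80 ± 0.31 CPM in tumor tTreg (SD). The Col22a1 call was lost without tumor pTreg replicate 2 or 3 or tumor tTreg replicate 3, at adjusted p of 0.0515, 0.104 and 0.0569, with DESeq2 (0.0653) and with the replicate number as a block (0.0697). Col12a1, another chain of this kind, did not pass the test (log2 fold change -0.36, edgeR adjusted p = 0.10).

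Col9a1, a chain of type IX collagen that coats cartilage fibrils and is also made from a shorter transcript in the eye, was a tumor-library gene. It measured 19.6, 18.8 and 18.9 CPM in tumor pTreg, against 34.2, 31.3, 34.0, 31.0 and 33.1 CPM in tumor tTreg, without overlap (log2 fold change -0.77, SE 0.057, edgeR adjusted p = 1.68e-11). The 4 LN Treg libraries had no count, so Col9a1 was at least 421-fold higher in tumor pTreg and at least 721-fold higher in tumor tTreg. The type IX helix is built from chains of 3 genes, and the other 2 were not seen at a like level. Col9a2 averaged 0.0553 CPM in tumor pTreg and 0.0327 CPM in tumor tTreg, and Col9a3 averaged 0.997 CPM in tumor pTreg, 0.940 CPM in tumor tTreg and 3.22 CPM in LN Treg. Col9a3 did not pass the test between the tumor groups (log2 fold change 0.090, edgeR adjusted p = 0.799) and was lower than LN Treg in both.

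The 2 Col9a1 windows printed above lie 17593 bases apart, and the transcripts that start there differ in length. The ratio of CPM to FPKM gives the effective length that the quantification assigned to a gene, which for 615 to 653 genes with 1 transcript was 292 to 315 bases (library medians) below the annotated length. For Col9a1 it was 2727 ± 34.6 bases in tumor pTreg (n = 3) and 2750 ± 14.4 bases in tumor tTreg (n = 5). The long annotated transcript, which starts at the upstream window and has 3834 bases, would give 3519 to 3540 bases. The short one, which starts near the downstream window and has 3059 bases, would give 2744 to 2765 bases. The observed lengths, 2690 to 2768 bases over the 8 tumor libraries, lay near the short transcript in both groups. The sources used here do not name the annotation of the quantification, so the lengths of GENCODE vM21 are a comparison and not the model used.

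**Figure D2:**
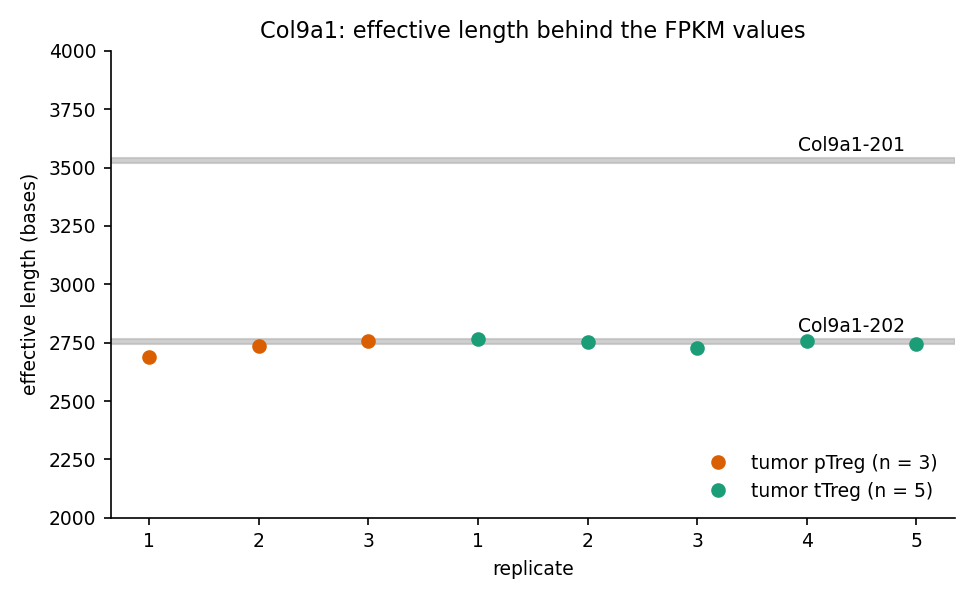
Effective length behind the Col9a1 FPKM in each tumor library. The y axis is 1000 times CPM over FPKM in bases and does not start at 0, points are libraries of tumor pTreg and tumor tTreg, and grey bands are the lengths that 2 annotated transcripts would give. All 8 points lie near the lower band, that of the shorter transcript.

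Col8a1, a short network-forming chain of vessel walls and the cornea, measured 16.6, 13.2 and 17.0 CPM in tumor pTreg, against 20.9, 23.4, 21.0, 20.3 and 20.3 CPM in tumor tTreg (log2 fold change -0.43, edgeR adjusted p = 4.45e-05). It had no count in LN Treg, so it was at least 345-fold higher in tumor pTreg and at least 466-fold higher in tumor tTreg, and its partner Col8a2 averaged at most 0.0985 CPM in any group. Col23a1, a transmembrane collagen, measured 14.0, 16.3 and 13.7 CPM in tumor pTreg, against 19.4, 18.5, 18.8, 17.6 and 16.7 CPM in tumor tTreg (log2 fold change -0.31, edgeR adjusted p = 0.00110), and 3.06, 3.64, 3.69 and 4.53 CPM in LN Treg. Neither gene overlapped between the tumor groups. The other 3 transmembrane collagens, Col13a1, Col17a1 and Col25a1, had at most 0.0461 CPM as a group mean.

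Col18a1 and Col10a1 were the 2 collagens called higher in tumor pTreg than in tumor tTreg. Col18a1, a basement membrane zone collagen whose end fragment is endostatin, measured 8.58, 6.79 and 6.03 CPM in tumor pTreg, against 5.64, 5.63, 5.35, 6.13 and 5.52 CPM in tumor tTreg (log2 fold change 0.34, SE 0.11, edgeR adjusted p = 0.00926). The groups overlapped, and without tumor pTreg replicate 1 the adjusted p was 0.188. Col10a1, known from the cartilage of growth plates, measured 0.990, 0.167 and 1.11 CPM in tumor pTreg, against 0.766, 0, 0.108, 0.219 and 0.166 CPM in tumor tTreg (log2 fold change 1.57, SE 0.55, edgeR adjusted p = 0.0190). Its groups overlapped, and the adjusted p was 0.106 without tumor pTreg replicate 1 and 0.155 without replicate 3. DESeq2 called neither, at adjusted p of 0.113 for Col18a1 and 0.102 for Col10a1. Exons of Col10a1 also overlap Nt5dc1 on the other strand, which averaged 21.6 CPM in tumor pTreg and 13.8 CPM in tumor tTreg; the sources used here do not say whether counting used strand.

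Over the classes, 16 of the 28 collagens tested fell in tumor pTreg, 2 rose and 10 were not called. Of all 15705 genes 52.1% were called, 25.3% lower and 26.8% higher, and of the collagens 57.1% were called lower. At a fold of at least 2, 9 of the 28 fell and 1 rose, where 7.98% of all genes were called, 1.41% lower and 6.56% higher. The median log2 fold change was -0.41 over the collagens and -0.0080 over all genes tested. By class, 5 of 8 fibrillar chains fell (median -2.14), 1 of 2 type IV chains fell (median -0.050), and 10 of 18 others fell and 2 rose (median -0.41). The tumor groups did not overlap in 17 of the 28 (60.7%), against 48.5% of all genes tested. By limma on log2(FPKM + 0.1), 3 of the lower calls were lost: Col4a1 (adjusted p = 0.362), Col16a1 (0.0981) and Col23a1 (0.0598). The other 16 collagens did not pass the filter on low counts and are not in these counts. With libraries scaled to the pan-T counts all 28 were called lower, as were 15253 of all 15705 genes. That scaling moved the median over all genes to -3.38, and Col4a2 then lay close to that median, at -3.36.

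**Figure D3:**
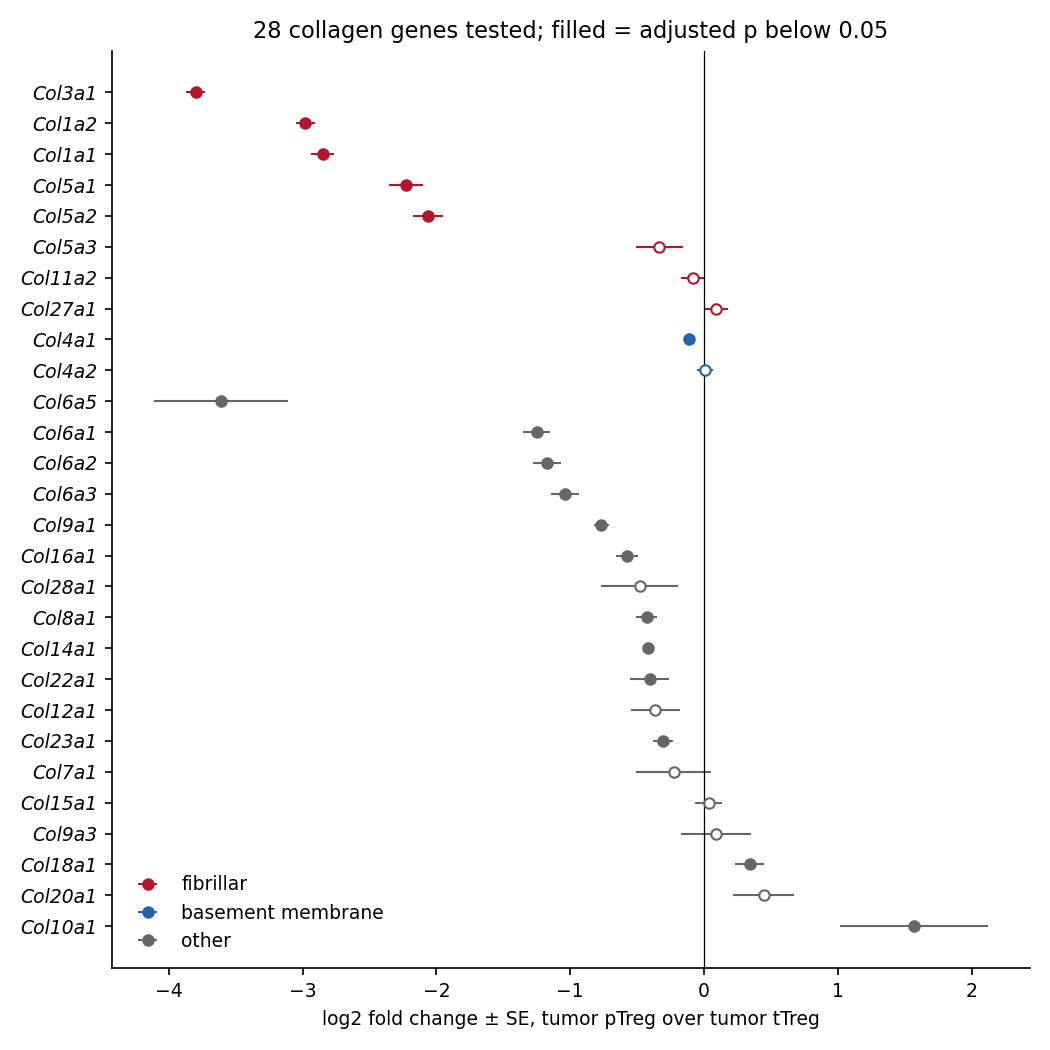
Log2 fold change of tumor pTreg over tumor tTreg for the 28 collagen genes tested, with SE, by class. Filled points have an adjusted p below 0.05. The lowest 5 fibrillar chains lie below -2, the 2 type IV chains lie near 0, and the type VI chains lie between -3.61 and -1.04.

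The class shares show the same data per length. Of the summed collagen FPKM, fibrillar chains made up 20.7 ± 2.33% in tumor pTreg, 58.4 ± 1.86% in tumor tTreg and 65.0 ± 4.20% in LN Treg (SD, n = 3, 5 and 4). Type IV chains made up 28.4 ± 2.27%, 12.4 ± 0.74% and 0.323 ± 0.134% in the same order, and other collagens 50.9 ± 0.81%, 29.2 ± 1.21% and 34.7 ± 4.14%. In summed FPKM the type IV class differed little between the tumor groups, at 25.1 ± 1.84 in tumor pTreg and 27.7 ± 0.69 in tumor tTreg, whereas the fibrillar class summed to 18.4 ± 2.27 in tumor pTreg and 131 ± 12.5 in tumor tTreg. All collagens together summed to 88.6 ± 1.20 FPKM in tumor pTreg and 223 ± 14.9 FPKM in tumor tTreg. LN Treg summed to 22.3 ± 0.79 FPKM.

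The leading chains differed between the groups as well. In tumor pTreg Col14a1 held 21.4% of the collagen FPKM, Col4a1 20.0%, Col4a2 8.24%, Col9a1 7.91% and Col3a1 6.81%. In tumor tTreg Col3a1 held 32.8%, Col1a2 12.3%, Col14a1 11.3%, Col4a1 9.08% and Col1a1 8.71%. In LN Treg Col11a2 held 57.3%, Col15a1 10.3% and Col9a3 8.31%. The fibrillar share of LN Treg was therefore mostly Col11a2, with Col3a1 at 0. Shares of 1 sum are tied to each other, and no test was made on them.

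**Figure D4:**
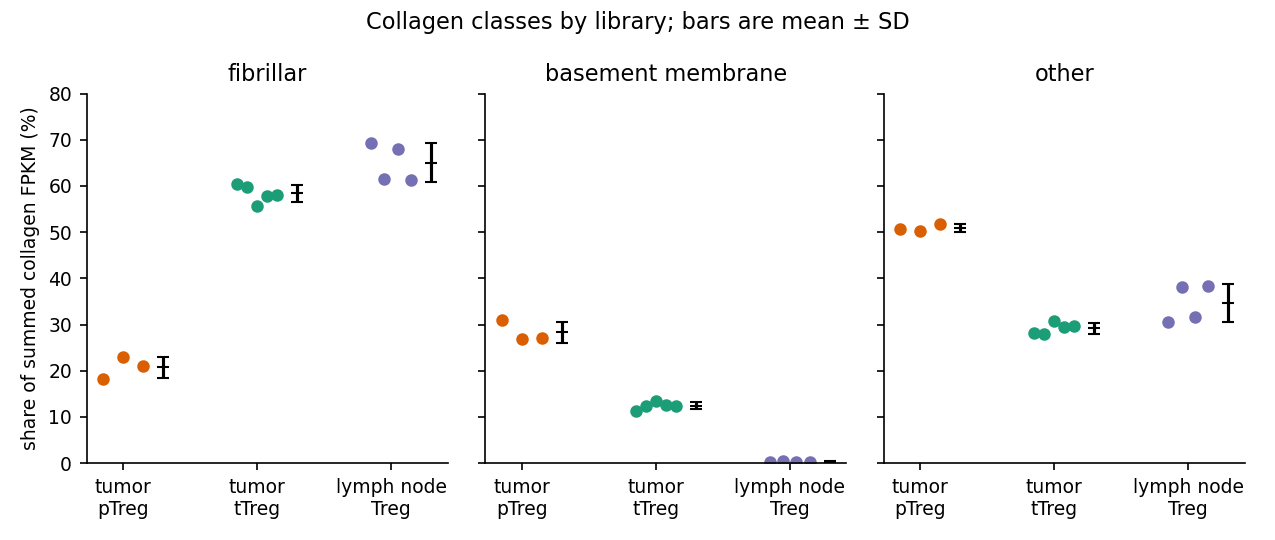
Share of fibrillar, type IV (basement membrane) and other collagens in the summed collagen FPKM of each library. The y axis is percent, points are libraries, and bars are mean ± SD. Fibrillar chains hold 18.3 to 22.9% in the 3 tumor pTreg libraries and 55.7 to 60.5% in the 5 tumor tTreg libraries.

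Against LN Treg nearly all tested collagens were higher in both tumor groups. In tumor pTreg 23 of 28 rose, 4 fell and 1, Col6a5, was not called, where 87.5% of all genes were called, 47.6% higher and 39.8% lower. In tumor tTreg 23 of 28 rose, 4 fell and 1, Col10a1, was not called, where 90.3% of all genes were called, 48.1% higher and 42.3% lower. Both comparisons share the LN Treg libraries. The median log2 fold change, with genes at 0 in LN Treg set to their bound, was 4.67 in tumor pTreg and 6.41 in tumor tTreg, against 0.12 and 0.10 over all genes. The filter kept genes that are high in 1 group, so these counts do not speak for the 16 collagens left out.

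A set of 4 collagens was lower than LN Treg in both tumor groups: Col11a2, Col9a3, Col20a1 and Col7a1. Col20a1, a fibril-associated chain, averaged 1.14 ± 0.11 CPM in tumor pTreg and 0.842 ± 0.159 CPM in tumor tTreg, against 5.59 ± 0.44 CPM in LN Treg, with log2 fold changes of -2.18 and -2.62. Col9a3 had log2 fold changes of -1.58 in tumor pTreg and -1.67 in tumor tTreg. Col7a1, the anchoring fibril of skin, averaged 1.35 ± 0.67 and 1.59 ± 0.41 CPM in tumor pTreg and tumor tTreg, against 2.82 ± 0.61 CPM in LN Treg, with log2 fold changes of -0.97 and -0.75. The tumor tTreg and LN Treg libraries overlapped for Col7a1, and limma on log2(FPKM + 1) and on log2(FPKM + 0.1) did not call it, at adjusted p of 0.0942 and 0.101 in tumor pTreg and 0.160 and 0.115 in tumor tTreg. With libraries scaled to pan-T counts, Col11a2 was still called lower in tumor pTreg, Col20a1 was not called (log2 fold change -0.079) and Col7a1 and Col9a3 turned higher. In tumor tTreg all 4 then turned higher than LN Treg. The median of all genes moved to 2.22 in tumor pTreg and 5.57 in tumor tTreg with this scaling, above the value of each of these 4 genes.

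Col15a1, a basement membrane zone collagen, measured 6.99, 7.13 and 6.42 CPM in tumor pTreg and 6.95, 6.17, 6.91, 6.52 and 7.01 CPM in tumor tTreg, against 5.18, 5.49, 3.69 and 4.42 CPM in LN Treg. By counts it rose by log2 fold changes of 0.66 in tumor pTreg and 0.62 in tumor tTreg over LN Treg. By FPKM its direction turned, to -0.19 and -0.20 on the log2(FPKM + 1) scale, without a call, and its effective length was 3702 ± 494 bases in tumor pTreg and 3673 ± 461 bases in tumor tTreg, against 2092 ± 494 bases in LN Treg (SD).

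Genes that act on collagen were followed as well. Of 10 genes of procollagen cleavage and crosslinking that were tested, 8 fell in tumor pTreg and none rose (median log2 fold change -0.68; -0.0080 over all genes, of which 25.3% fell and 26.8% rose). Loxl1, which crosslinks elastin and collagen, averaged 0.258 CPM in tumor pTreg and 4.99 CPM in tumor tTreg (log2 fold change -4.23, edgeR adjusted p = 2.39e-14). Bmp1, the protease that cuts the C-propeptide from fibrillar procollagens, averaged 28.6 CPM in tumor pTreg and 50.2 CPM in tumor tTreg (log2 fold change -0.81, edgeR adjusted p = 1.17e-13). Pcolce, which enhances that cut, averaged 225 CPM in tumor pTreg and 331 CPM in tumor tTreg (log2 fold change -0.55), and Adamts2, which removes the N-propeptide, fell by 2.01 on the log2 scale. The sum of the 13 genes was at most 3.41 CPM in any LN Treg library.

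Of 22 tested genes of collagen maturation and secretion, 11 fell in tumor pTreg, 2 rose and 9 were not called (median log2 fold change -0.19), where 25.3% of all genes fell and 26.8% rose. P4hb, a subunit of prolyl 4-hydroxylase and the most abundant of them, averaged 1103 CPM in tumor pTreg and 1289 CPM in tumor tTreg (log2 fold change -0.22, edgeR adjusted p = 2.30e-07). Serpinh1, the collagen chaperone Hsp47, averaged 9.57 CPM in tumor pTreg and 18.0 CPM in tumor tTreg (log2 fold change -0.90, edgeR adjusted p = 1.53e-10). Plod2, a lysyl hydroxylase of the collagen telopeptides, went the other way, at 6.99 CPM in tumor pTreg and 1.41 CPM in tumor tTreg (log2 fold change 2.31, edgeR adjusted p = 6.53e-12), with 7.42 CPM in LN Treg.

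Of 11 collagen receptors tested, 4 rose, 5 fell and 2 were not called (median log2 fold change 0.012), where 26.8% of all genes rose and 25.3% fell. Itga1, which pairs with Itgb1 to bind type IV and type I collagen, averaged 12.3 CPM in tumor pTreg and 1.54 CPM in tumor tTreg, a log2 fold change of 3.00 (SE 0.13, adjusted p = 1.13e-17, edgeR). Itga11, a fibroblast receptor for fibrillar collagen, averaged 0.166 CPM in tumor pTreg and 1.04 CPM in tumor tTreg (log2 fold change -2.59, edgeR adjusted p = 1.81e-06). Ddr1 and Ddr2, receptor kinases for collagen, fell by 0.46 and 0.41 on the log2 scale. Itgb1 did not pass the test, at 818 CPM in tumor pTreg and 816 CPM in tumor tTreg.

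Markers of stromal cells were followed beside the collagens. Of 14 tested fibroblast markers 12 fell in tumor pTreg and 1 rose (Pdgfrb), with a median log2 fold change of -1.59. Of all genes tested 25.3% fell and 26.8% rose, with a median of -0.0080. Their summed level was 103 to 116 CPM in tumor pTreg, 231 to 256 CPM in tumor tTreg and 2.41 to 3.08 CPM in LN Treg. Pdgfra, Lum, Mfap5, Prrx1 and Pdpn were at 0 in LN Treg, and Tcf21 was at 0 in tumor pTreg. Dcn, which binds type I fibrils, averaged 83.9 CPM in tumor pTreg and 157 CPM in tumor tTreg (log2 fold change -0.89), Lum had a log2 fold change of -3.92 and Dpt of -3.87. Fibroblast markers were thus lower in the group in which fibrillar and type VI collagens were lower, and their part in those results was not tested.

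Pericyte, stellate and smooth muscle markers went the opposite way, with 6 of 8 higher and 1 lower (Des) in tumor pTreg (median log2 fold change 1.22). They summed to 24.5 to 33.0 CPM in tumor pTreg, 11.5 to 16.3 CPM in tumor tTreg and 3.06 to 3.95 CPM in LN Treg, with Lrat and Hand2 at 0 in all 3 groups and Cspg4 and Abcc9 also at 0 in LN Treg. Rgs5, a pericyte gene, averaged 12.3 CPM in tumor pTreg and 2.93 CPM in tumor tTreg (log2 fold change 2.07). Of 12 tested endothelial markers 7 rose and 1 fell (Esam), with a median log2 fold change of 0.76 against -0.0080 over all genes, of which 26.8% rose and 25.3% fell. The list summed to 71.0 to 84.0 CPM in tumor pTreg and 57.1 to 61.5 CPM in tumor tTreg. In LN Treg it was 189 to 194 CPM, where Pecam1 alone averaged 189 CPM and Tek, Tie1, Cldn5, Emcn and Robo4 were at 0. Pecam1 averaged 30.9 CPM in tumor pTreg and 18.4 CPM in tumor tTreg, and Esam averaged 18.3 and 25.7 CPM. Given the Pecam1 level in LN Treg, the sum of this list does not measure endothelial cells alone. Tumor pTreg replicate 1, the library with the most Col4a2, also had the highest pericyte sum (33.0 CPM) and the highest endothelial sum (84.0 CPM) of the tumor libraries. Other libraries did not follow this order. Tumor tTreg replicate 5, at 48.8 CPM of Col4a2, had the lowest endothelial sum of the tumor libraries (57.1 CPM). Tumor pTreg replicates 2 and 3 were the lowest in Col4a2, at 42.1 and 41.5 CPM. Their pericyte sums, 24.5 and 29.6 CPM, were above those of every tumor tTreg library. The part of these cells in the type IV levels was not tested.

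Other cell types differed less or in 1 direction. All 7 tested hepatoma and hepatocyte markers fell in tumor pTreg (median log2 fold change -0.66), as did the 2 tested mesothelial markers, Krt19 and Msln. Of 10 macrophage markers 1 rose and 3 fell (median -0.050). For each count in this paragraph, 25.3% of all genes tested fell and 26.8% rose (median -0.0080). The hepatoma sums ranged from 5388 to 5757 CPM in tumor pTreg and from 7961 to 8309 CPM in tumor tTreg, and their part in the levels of the collagens was not tested. All 18 pan-T genes and all 5 Treg markers rose in tumor pTreg over tumor tTreg, by unlike amounts. The median log2 fold change was 3.51 for the pan-T genes and 1.82 for the Treg markers, with Foxp3 at 1.23. The Treg markers thus rose less than the pan-T genes by these medians.

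**Figure D5:**
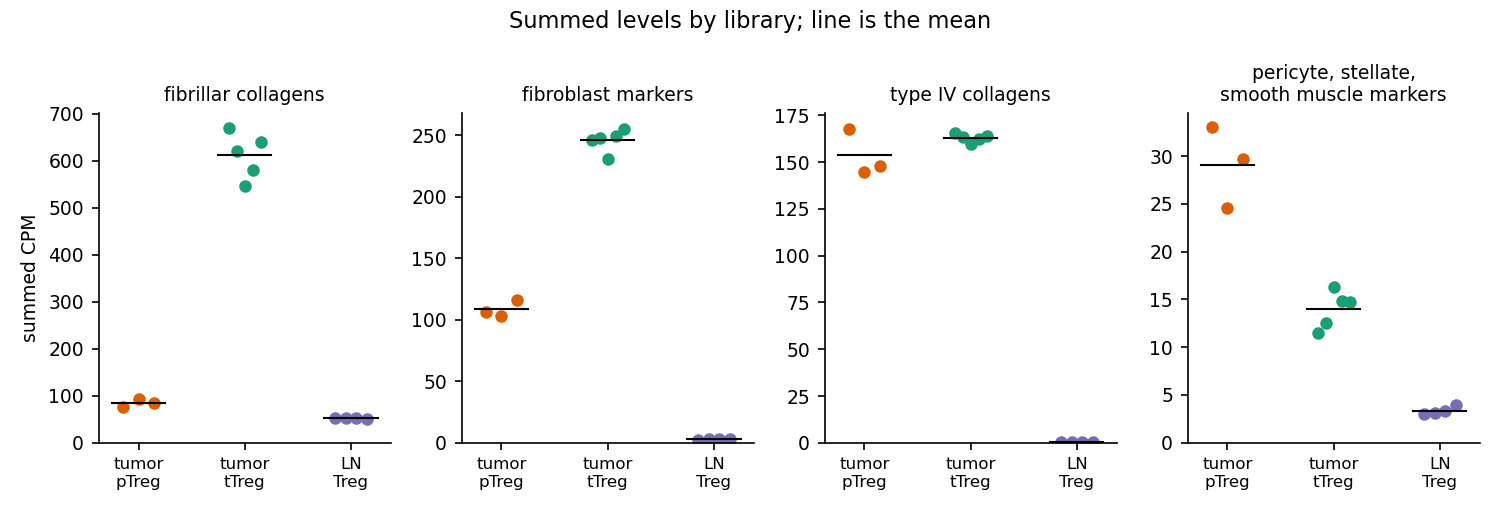
Summed CPM of fibrillar collagens, fibroblast markers, type IV collagens, and pericyte, stellate and smooth muscle markers in each library. Points are libraries, lines are means, and each y axis starts at 0. Fibrillar collagens and fibroblast markers lie lower in tumor pTreg libraries than in those of tumor tTreg, type IV sums of the tumor groups overlap, and pericyte markers are higher in tumor pTreg.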

How the data were processed

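RNA of sorted mouse Treg cells was sequenced in 12 libraries. Per the submitters' processing notes the tools were STAR 2.7.11a, RSEM 1.3.3 and DESeq2, and the build GRCm38/mm10. Expected counts and FPKM were deposited by the authors per gene and library; the expected counts are whole numbers in the file. CPM were computed here from those counts and the library totals, and effective lengths from 1000 times CPM over FPKM. Tests used edgeR 4.0.16 in R 4.3.3 (quasi-likelihood F test, TMM factors, group as the only factor, all 12 libraries), with filterByExpr by group at a minimum count of 10, which kept 15705 of 27279 genes with a count, 28 of them collagens. p-values were adjusted over all genes of a comparison, and calls were made at 0.05. The script was tested on simulated counts. Ratios of chains used exact permutation tests over libraries, and limma 3.58.1 and DESeq2 1.42.0 served as alternatives.

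All 44 symbols were found in GENCODE vM21 (GRCm38), and exons of 13 overlap another gene. Any collagen gene may be named, and those with a mean of at least 10 CPM in any group are given for every library. From each other list the up to 4 members with the smallest p between the tumor groups, the 2 most abundant and partners of a collagen result may be named; Pdgfrb, Des, Esam, Nt5dc1 and markers at 0 were named after their values were seen. The members and all lists were chosen with earlier results of these data known. In 19 pairs of libraries within groups, counts differed beyond sampling noise (chi-square over its degrees of freedom was 1.62 to 3.74). Each library was kept as 1 replicate, though these values do not show whether libraries came from separate animals. The sources used here do not say whether libraries of the same number in different groups belong together, and the main test did not pair them.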

Additional observations from a re-analysis of the deposited data

Results flagged for a closer look

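In 48 groups of 4 or 5 libraries, 5 collagens had a single library far from the others by a gap test that picks out about 1 group in 20 by chance. All 5 were in tumor tTreg and none in LN Treg. Col4a2 read 48.8 CPM in tumor tTreg replicate 5, where the other 4 libraries read 43.4 to 44.8 CPM. Col6a3 read 20.5 CPM in the same library, against 14.9 to 15.9 CPM in the others. Col8a1 read 23.4 CPM in replicate 2, against 20.3 to 21.0 CPM, and Col14a1 read 127 CPM in replicate 1, against 116 to 119 CPM. Col16a1 was low in replicate 3, at 13.0 CPM, where the others read 14.5 to 15 CPM. Apart from Col4a2, each of these genes was still lower in all 3 tumor pTreg libraries than in every tumor tTreg library. The tumor pTreg group has 3 libraries and was not tested in this way.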

How the results depend on the processing

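Over 84 results of single collagens, 1819 of 1890 alternative values kept direction and call, and 990 of the 1005 that left out 1 library did. Between the tumor groups the count of collagens higher in tumor pTreg was 2, and it was 0 with pan-T scaling, DESeq2 and each limma fit on FPKM, and 1 at a mean of at least 1 CPM or a fold of at least 2; leaving out 1 library gave 0 to 2. The count lower was 28 with pan-T scaling (where 15253 of all 15705 genes were lower), 9 at a fold of at least 2, and 14 to 16 with 1 library left out. Against LN Treg the 4 lower became 1 for tumor pTreg and 0 for tumor tTreg with pan-T scaling, where 685 and 162 of all 15705 genes were lower. By limma on FPKM at a mean of at least 1 they became 1 in both, where 5650 and 5876 of all 13401 genes were lower. Leaving out 1 library gave 4 to 5 lower, with 22 to 23 higher for tumor pTreg and 23 for tumor tTreg. Pan-T scaling moved the median of all genes to -3.38, 2.22 and 5.57 in the 3 comparisons.

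Between the tumor groups pan-T scaling turned Col4a2 to -3.36, Col9a3 to -3.27, Col10a1 to -1.77, Col15a1 to -3.33, Col18a1 to -3.02, Col20a1 to -2.91 and Col27a1 to -3.28. Against LN Treg it turned Col6a5 (1.72), Col7a1 (1.12) and Col9a3 (0.51) in tumor pTreg, and Col7a1 (4.71), Col9a3 (3.79), Col11a2 (2.87) and Col20a1 (2.84) in tumor tTreg. The other reversals between the tumor groups were of genes with no call in either fit. Col4a2 was -0.035 with RLE factors and with DESeq2, -0.0071 at a mean of 1 CPM, -0.0046, -0.0057 and -0.0046 by limma on FPKM, and -0.098 to 0.062 with 1 library left out (below 0 without tumor pTreg replicate 1, -0.0030 and -0.0031 without tumor tTreg replicates 1 and 3). Col15a1 was -0.0097 with RLE factors and -0.0091 with DESeq2, and Col7a1 ranged from -0.54 to 0.12 with 1 library left out, above 0 without tumor pTreg replicate 1. Col9a3 was -0.064 and -0.18 by limma on FPKM, and -0.27 to 0.28 with 1 library left out, below 0 without tumor pTreg replicate 2 and tumor tTreg replicate 5. Against LN Treg, Col6a5 in tumor pTreg was 3.5e-05 and 0.0030 by limma on FPKM and -0.59 to 0.32 with 1 library left out, above 0 without LN Treg replicate 3, and Col15a1 in the FPKM fits was -0.19, -0.27 and -0.19 for tumor pTreg and -0.20, -0.28 and -0.20 for tumor tTreg. The cause of these changes was not tested.

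With the replicate number as a block, 2 collagens were higher and 15 lower between the tumor groups. Of all 15705 genes, 3932 were higher and 3563 lower in that fit. Col22a1 was not called (edgeR adjusted p = 0.0697) and Col9a3 read -0.016. Over 10 pairs of the same number the correlation of deviations was -0.058 to 0.056 (9623 genes). These values cannot tell whether libraries of the same number came from the same tumors.

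By expected counts the shares of type IV, other and, in LN Treg, fibrillar collagens were 35.8 and 44.5% for tumor pTreg, 15.6 and 26.1% for tumor tTreg, and 0.631, 29.3 and 70.0% for LN Treg. With types VII, XV and XVIII added to type IV, its share was 33.0% and that of other collagens 46.2% for tumor pTreg, 14.2 and 27.4% for tumor tTreg, and 16.7 and 18.3% for LN Treg. With 1 library left out, fibrillar shares were 19.7 to 22.0%, 57.9 to 59.1% and 63.6 to 66.2% in tumor pTreg, tumor tTreg and LN Treg. The log2 difference of the Col1a1 to Col1a2 ratio between tumor pTreg and LN Treg was -0.29 to 0.072, turning without LN Treg replicate 3, and that of Col6a1 to Col6a2 between the tumor groups was -0.21 to 0.13, turning without tumor pTreg replicate 1. Genes with at least 1 CPM in any group numbered 25, and 28 by any single library, 23 at 1 FPKM and 29 at 0.5 CPM.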
